A study of Mus musculus with 43 samples.

Results

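H3R2me2a and H3R8me2a, the asymmetric dimethylation of arginine 2 and of arginine 8 of histone H3, were compared in male germ cells of wild-type (WT) C57BL/6J mice at postnatal day 14 (P14). The comparison rests on all peak lists that the labels give for these marks at this age and genotype, which are 2 replicate CUT&Tag lists for H3R2me2a and 2 for H3R8me2a, 4 of the 43 samples and of the 33 CUT&Tag lists of the series. CUT&Tag maps a histone mark by an antibody that brings a transposase to it, and each list holds the places where the reads of 1 library rose above their local background. The cells came from seminiferous tubules digested with enzymes and strained to hold back Sertoli cells, without a sort, and the labels call them spermatogonia in the title and spermatocytes in another field. Nothing in the labels says whether the replicates came from separate mice, so the tests measure the spread between these libraries. WT lists of other marks at P14, and WT lists and RNA libraries from postnatal day 7 (P7), were used beside them. The RNA came from an experiment with tamoxifen. By the study's methods, its sorted control cells came from heterozygous mice with Ddx4-GFP-CreERT2 and 1 floxed Prmt1 allele.

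Arginine residues of histones are methylated by the PRMT family. Type I enzymes such as PRMT1, PRMT2, CARM1 and PRMT6 leave both methyl groups on 1 nitrogen (asymmetric, me2a), and PRMT5 places them on different nitrogens (symmetric, me2s). H3R2me2a, laid down mainly by PRMT6, is known to hinder the binding of the WDR5 and MLL complexes that methylate the neighbouring lysine 4, while H3R8me2a, tied to PRMT2, lies next to lysine 9 and is less well described. At P14 the mouse testis holds spermatogonia and the first wave of cells in meiotic prophase.

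The sequences under the summits of the regions described below were read from the mouse genome (RefSeq assembly GRCm38.p6, the coordinates of mm10, plus strand). Each covers the 100 bases on either side of a summit, with CpG dinucleotides in capitals, because CpG content was one of the features in which the regions differed. The first pair lay in regions that all 4 lists held with the lowest p-values, the Prdm9 window stands for a meiotic promoter with both marks (chosen, like Taco1, after the values were seen), and the others lay where both replicates of 1 mark had a peak and neither replicate of the other mark did.
Shared region in repeat sequence, chr9:35305331-35305530: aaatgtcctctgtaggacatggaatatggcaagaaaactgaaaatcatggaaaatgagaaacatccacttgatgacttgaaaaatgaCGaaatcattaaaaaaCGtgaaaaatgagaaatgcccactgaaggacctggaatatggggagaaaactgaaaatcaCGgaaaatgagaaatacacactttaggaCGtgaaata
Shared intergenic region, chr11:109011802-109012001: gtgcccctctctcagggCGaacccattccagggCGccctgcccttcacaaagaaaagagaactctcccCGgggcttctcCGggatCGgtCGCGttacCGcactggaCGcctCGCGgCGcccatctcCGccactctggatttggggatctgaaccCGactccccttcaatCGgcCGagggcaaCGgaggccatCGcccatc
Promoter of Prdm9, both marks, chr17:15564076-15564275: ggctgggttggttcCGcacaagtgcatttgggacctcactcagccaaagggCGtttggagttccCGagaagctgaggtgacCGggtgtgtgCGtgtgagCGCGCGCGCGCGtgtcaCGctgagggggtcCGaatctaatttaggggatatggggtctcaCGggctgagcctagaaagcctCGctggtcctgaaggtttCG
H3R2me2a separate region at Rrm2, chr12:24708333-24708532: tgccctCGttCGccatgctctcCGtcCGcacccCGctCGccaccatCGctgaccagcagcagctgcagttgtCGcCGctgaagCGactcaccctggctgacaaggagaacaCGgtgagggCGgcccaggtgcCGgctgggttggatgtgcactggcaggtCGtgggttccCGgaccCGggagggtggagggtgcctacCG
H3R2me2a separate region at Ndufc2, chr7:97400106-97400305: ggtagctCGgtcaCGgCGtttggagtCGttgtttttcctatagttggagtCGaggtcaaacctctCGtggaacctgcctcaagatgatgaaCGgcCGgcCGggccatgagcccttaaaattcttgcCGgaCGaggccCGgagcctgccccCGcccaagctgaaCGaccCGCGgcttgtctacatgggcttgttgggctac
H3R8me2a promoter peak of Taco1, chr11:106066536-106066735: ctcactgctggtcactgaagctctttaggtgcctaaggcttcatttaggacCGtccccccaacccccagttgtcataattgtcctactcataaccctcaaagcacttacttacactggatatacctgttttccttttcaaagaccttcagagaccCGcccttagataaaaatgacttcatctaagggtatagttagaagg
H3R8me2a separate region on chromosome X, chrX:76129028-76129227: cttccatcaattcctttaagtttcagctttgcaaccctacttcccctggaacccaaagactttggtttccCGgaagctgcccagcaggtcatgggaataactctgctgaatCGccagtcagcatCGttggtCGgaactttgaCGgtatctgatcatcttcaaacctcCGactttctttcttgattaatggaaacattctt
H3R8me2a separate region on chromosome 1, chr1:122357202-122357401: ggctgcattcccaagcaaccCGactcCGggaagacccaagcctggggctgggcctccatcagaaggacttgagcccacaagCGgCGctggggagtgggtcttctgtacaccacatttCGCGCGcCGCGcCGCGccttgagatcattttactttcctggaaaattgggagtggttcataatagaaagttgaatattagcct
H3R8me2a separate region on chromosome 14, chr14:19278107-19278306: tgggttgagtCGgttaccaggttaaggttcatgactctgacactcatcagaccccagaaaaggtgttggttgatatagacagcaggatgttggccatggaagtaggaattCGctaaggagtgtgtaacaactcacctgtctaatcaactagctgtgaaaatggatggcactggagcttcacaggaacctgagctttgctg

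The repeat window on chromosome 9 (4 CpG, 35.5% GC, wholly soft-masked as repeat) shared its letters with another top region. Of the 12-base words of the window at the second-ranked shared region (chr2:98666948-98667147, near Gm10800), 41.8% also occurred in it on either strand. The intergenic window on chromosome 11 held 18 CpG. The fold enrichments of the region on chromosome 9 were 19.7 and 19.3 in the H3R2me2a lists and 22.2 and 20.8 in the H3R8me2a lists. Those of the chromosome 11 region were 14.8 and 14.7 in H3R2me2a and 19.2 and 18.3 in H3R8me2a. Each of the 3 top shared regions was a peak in all 31 WT lists of the series, whatever the antibody. In all, 311 of the 20490 H3R2me2a regions and 308 of the 9432 H3R8me2a regions lay in every WT list, and 49.2% and 50.6% of these were more than 50% soft-masked.

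The lists differed in length. On the chromosomes 1 to 19, X and Y, H3R2me2a had 47824 and 55750 peaks and H3R8me2a had 33738 and 29154, covering 17.8 and 20.9 Mb against 10.9 and 10.4 Mb. The reads behind the lists are unknown, so neither peak numbers nor fold enrichments were compared as levels of the marks. The median fold enrichment was 2.92 and 2.86 in the H3R2me2a lists and 3.26 and 3.17 in the H3R8me2a lists. Replicate 1 of H3R8me2a stood apart in the share of its peaks with a q of at most 0.01, 16.3% against 31.8% to 34.8% in the other 3 lists. Places, overlaps, class sizes, the H3K4me3 and H3K27ac gaps, the P7 comparison, genes and expression were therefore also computed after the lists were cut to the 29154 peaks with the lowest p, the length of the shortest, called equal list length below. The sequence content of the region classes and promoters, the X shares and the H4 marks were computed from the full lists only.

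For both marks promoters were the place with the largest share of summits, a promoter being the sequence within 3000 bp of an annotated transcription start site. Promoters took 43.8% and 41.4% of the summits of H3R2me2a and 40.9% and 46.4% of those of H3R8me2a, against 15.1% of the genome. The groups overlapped, with means of 42.6% ± 1.71 and 43.7% ± 3.89 (SD, n = 2 lists each; exact permutation test, two-sided, p = 1). At equal list length the order turned, to 50.2% and 50.3% for H3R2me2a and 42.8% and 46.4% for H3R8me2a, and the groups no longer overlapped (exact permutation p = 0.33, the smallest that 2 against 2 lists allow). That cut removed the weaker peaks of the longer lists, mostly of H3R2me2a, so peak strength changed along with length. Among peaks with a q of at most 0.01 the means kept the order of the full lists, at 57.8% for H3R2me2a and 61.8% for H3R8me2a (exact permutation p = 0.67). In every list the 100-bp bin with most summits was the one just downstream of the start site, with 5.63% to 7.14% of the peaks.

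Exons outside promoters separated the marks under both lengths. H3R2me2a had 2.64% and 2.71% of its summits there and H3R8me2a 1.88% and 1.82%, a ratio of the means of 1.45, with exons making up 1.11% of the genome (exact permutation p = 0.33, the smallest possible). With lists of equal length the values were 2.36% and 2.35% against 1.87% and 1.82%. The exon shares at P7, the younger age with lists of the same marks, lay in the same order, 2.1% in each list of H3R2me2a against 1.53% and 1.33% for H3R8me2a. Likewise, 3' untranslated regions took 1.28% and 1.24% of H3R2me2a summits and 0.946% and 0.967% of H3R8me2a summits, the latter close to their 0.946% of the genome, though at equal list length the difference shrank to 0.055 percentage points. Introns (27.6% and 28.7% against 28.9% and 25.6%) and distal intergenic sequence (24.6% and 25.9% against 27.2% and 25%) overlapped between the marks in the full lists. With equal lists they separated, introns at 23.9% and 23.4% against 27.8% and 25.6% and distal sequence at 22.5% and 22.7% against 26.5% and 25.01%, a distal difference of -3.14 percentage points. Both marks were sparse on the X chromosome, which makes up 6.28% of the chromosome length and held 0.780% and 0.965% of H3R2me2a peaks and 0.928% and 0.761% of H3R8me2a peaks, below the 3.42% and 3.41% of H3K4me3 and the 1.95% and 2.11% of H3K27ac at the same age. The H4 arginine marks were as sparse there, with 0.448% to 1.04% over their 8 lists.

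**Figure D1:**
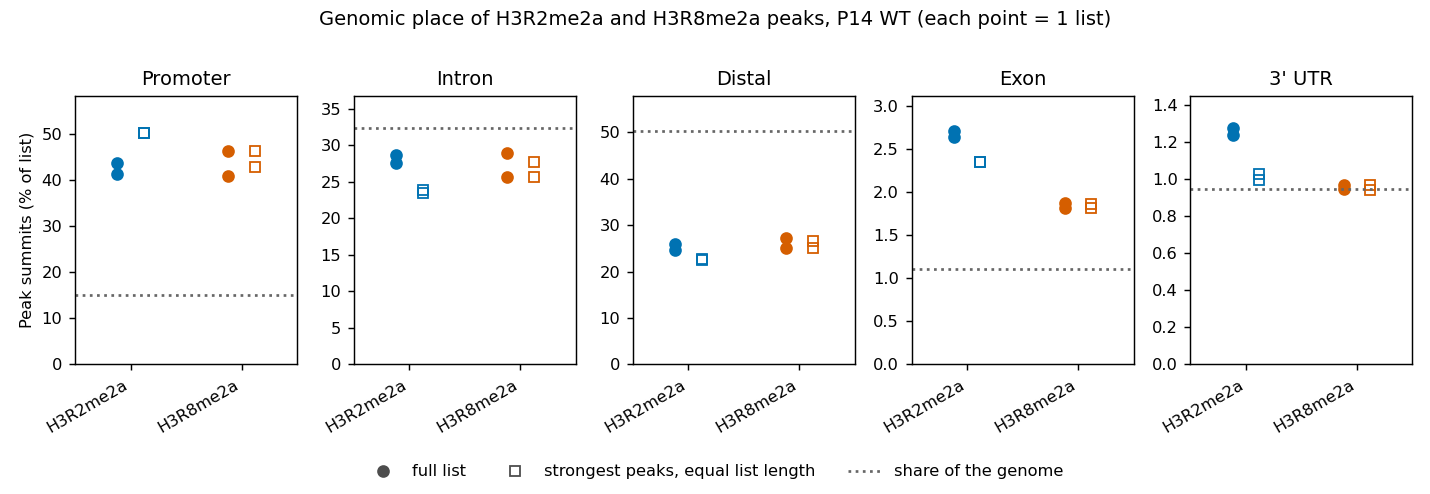
Share of peak summits (percent of a list) in 5 genomic places for the 2 H3R2me2a and 2 H3R8me2a lists of P14 WT, as full lists (filled) and at equal list length (open), with dotted lines at the share of the genome. The exon points of H3R2me2a lie above those of H3R8me2a in both forms, while the promoter points overlap in the full lists and separate at equal length.

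How far the marks share their places has to be read against how far replicates of 1 mark do. At equal list length, 43.4% and 43.2% of the peaks of each H3R2me2a replicate overlapped a peak of the other, whereas the H3R8me2a replicates found 31.9% and 31.6% of each other's peaks. Between the marks the mean of both directions ran from 32.6% to 36.8% over the 4 pairs of lists. Peaks of H3R8me2a were thus found in H3R2me2a lists at least as often as in the other H3R8me2a replicate. The mean overlap within a mark was 37.5% and that between marks 34.7%, a difference of 2.85 percentage points (exact permutation over the 3 ways of pairing the 4 lists, p = 0.33, the smallest possible). At P7 the order of the marks was the other way, with 23.6% between the H3R8me2a replicates, 16.3% between the H3R2me2a replicates and 16.4% to 16.9% between the marks, at 15157 peaks a list; the difference between the ages was not tested.

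Overlap followed strength. In the decile of H3R2me2a replicate 1 with the lowest p, 90.5% of peaks lay in the other replicate and 80.8% and 85.7% in the H3R8me2a lists. In its last decile the values were 23.3% against 14.0% and 16.4%. For H3R8me2a replicate 1 the first decile gave 86.2% in the other replicate and 81.0% and 82.3% in the H3R2me2a lists, and the last gave 7.92% against 9.23% and 8.85%. H3R2me2a peaks were found in their own replicate more often than in either H3R8me2a list in each of the 10 deciles of both lists. H3R8me2a peaks exceeded the cross-mark values only in the first decile. Across the 6828 H3R2me2a recurrent regions with a peak in all 4 lists, Pearson's r of log2 fold enrichment was 0.753 between H3R2me2a replicates, 0.732 between H3R8me2a replicates and 0.660 to 0.686 between the marks, a correlation across regions that share libraries and are not independent replicates.

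**Figure D2:**
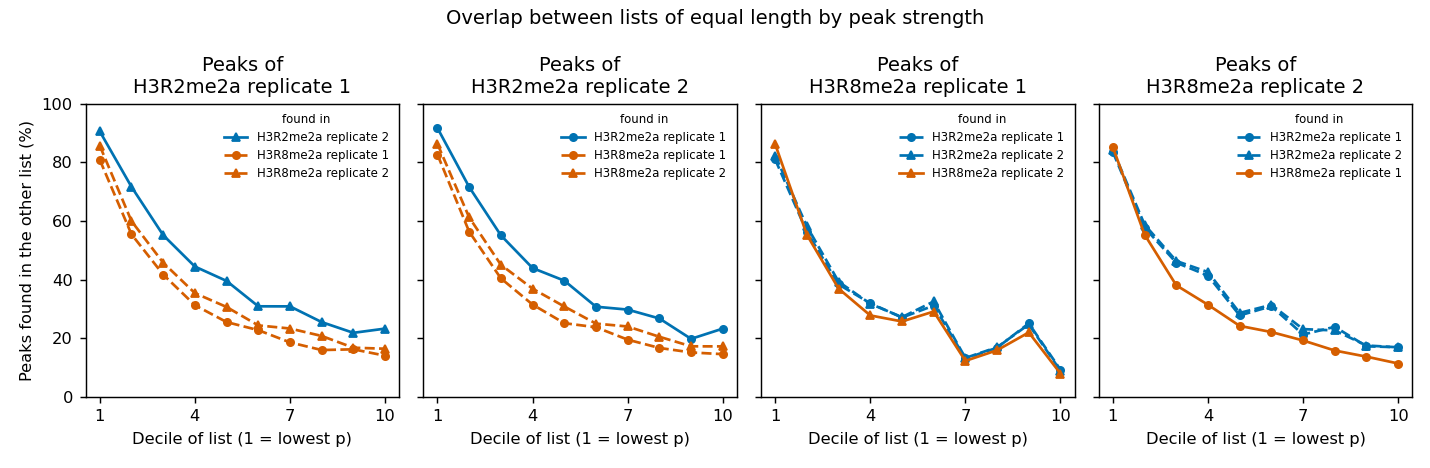
Percent of peaks of each list (panels) found in each other list (lines) at equal list length, by decile of p-value from the strongest (1) to the weakest (10). Solid lines are the replicate of the same mark and dashed lines the lists of the other mark. For H3R2me2a the solid line runs above both dashed lines, from 90.5% to 23.3% in replicate 1, and for H3R8me2a it lies above them in decile 1 and below both in deciles 2 to 10 of either replicate, in replicate 2 at 31.4% against 41.3% and 42.5% in decile 4.

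Regions that recurred in both replicates were then sorted into 3 classes. A recurrent region was a stretch of merged peaks with peaks of both replicates; it was shared where it overlapped a recurrent region of the other mark, separate where it overlapped no peak of either list of the other mark, and intermediate otherwise. H3R2me2a had 20490 recurrent regions, of which 6562 (32.0%) were shared, 6187 intermediate and 7741 (37.8%) separate. H3R8me2a had 9432, of which 6599 (69.96%) were shared, 1566 intermediate and 1267 (13.4%) separate. The asymmetry was smaller with the lists cut to equal length, where 45.0% of H3R2me2a regions and 62.0% of H3R8me2a regions were shared, with 2994 and 1653 separate regions. Separate regions were weak on the side of H3R2me2a: their share rose from 2.39% of regions in the strongest decile (by the weaker replicate) to 67.0% in the weakest. On the side of H3R8me2a it ran from 6.25% to 31.5%, and the strongest decile held more separate regions than each of the next 2. The shared regions were also wider, with a median of 722 bp among H3R2me2a regions against 489 bp for separate ones, and 610 bp against 417 bp for H3R8me2a, which widens the target for any overlap.

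The classes lay in different places and sequences. Of the shared H3R2me2a regions 71.7% had their centre in a promoter, of the H3R2me2a separate regions 44.1%, and of the H3R8me2a separate regions 32.3%. H3R8me2a separate regions were distal in 36.4% and intronic in 29.1%. Exons held 271 (3.50%) of the H3R2me2a separate regions, 13 (1.03%) of the H3R8me2a separate regions and 55 (0.838%) of the shared regions. Median CpG numbers in the central 500 bp fell from 34 in shared regions to 10 in H3R2me2a separate and 6 in H3R8me2a separate regions, with GC contents of 62%, 55% and 50.8%. Within promoters alone the order was the same, with 41, 21 and 12 CpG. Repeats differed outside promoters: 14.8% of the distal H3R2me2a separate regions were more than 50% soft-masked, against 54.2% of the distal H3R8me2a separate regions and 47.3% of the distal shared ones. The X chromosome held 31 (2.45%) of the H3R8me2a separate regions, 96 (1.24%) of the H3R2me2a separate regions and 41 (0.625%) of the shared regions. These shares describe 1 set of regions per mark and carry no test.

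The top separate regions of each mark were single examples and did not all follow these medians. The best-ranked H3R2me2a separate region (chr4:3661481-3661954) was intronic, 5210 bp from the nearest start site, with fold enrichments of 6.37 and 5.37, and the 200 bases at its summit held 0 CpG and were wholly soft-masked. The other two lay at promoters. The window at Rrm2, which encodes the small subunit of ribonucleotide reductase, held 17 CpG and 68.5% GC and came from a region of 852 bp (chr12:24707881-24708732) whose centre lay 66 bp from the start site. Its fold enrichments were 4.16 and 3.98 in H3R2me2a, with no H3R8me2a peak, and 18 WT lists held a peak there. The window at Ndufc2, a subunit gene of mitochondrial complex I, held 16 CpG in a region of 358 bp (chr7:97400007-97400364), with fold enrichments of 4.68 and 4.60. None of the 3 top H3R8me2a separate regions lay in a promoter. The one on chromosome X (chrX:76128710-76129325) lay 33587 bp from the nearest start site, with fold enrichments of 19.0 and 19.3. The one on chromosome 1 (chr1:122356971-122357473) lay 152077 bp away with 11.7 and 13.8, and the intronic one on chromosome 14 (chr14:19277917-19278450) had 13.7 and 10.7. All 3 were also peaks in both P7 H3R8me2a lists and in neither P7 H3R2me2a list, and all 3 overlapped a peak of at least 1 H4R3me2s list. At most 3% of the bases of these windows were soft-masked. Of the 181 words of 20 bases in the chromosome X window, 27 also occurred in the annotated copy of 18S ribosomal RNA on chromosome 17 (Rn18s-rs5, chr17:39846354-39848202), and none of those in the chromosome 1 and 14 windows did. The rest of the ribosomal DNA was not searched.

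Other marks were measured in lists that took no part in the sorting. H3K4me3 peaks, the mark of active and poised promoters, covered 80.2% and 78.3% of the shared H3R2me2a regions (2 lists), 27.5% and 29.2% of the H3R2me2a separate regions, and 17.5% and 17.8% of the H3R8me2a separate regions. H3K27ac, the mark of active promoters and enhancers, covered 83.9% and 74.7%, 26.4% and 21.8%, and 21.3% and 21.0%. Within promoters H3K4me3 covered 93.8% and 93.2% of shared regions, 51.1% and 54.2% of H3R2me2a separate and 47.4% and 47.9% of H3R8me2a separate regions. Outside promoters the values were 8.96% and 9.47% for H3R2me2a and 3.26% and 3.50% for H3R8me2a. In promoters H3K27ac lay more often on H3R8me2a separate regions (43.5% and 42.1%) than on H3R2me2a separate regions (35.5% and 28.0%).

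The histone H4 arginine marks lay on the separate classes in different orders. Asymmetric H4R3me2a covered 26.6%, 31.1% and 29.6% of the H3R2me2a separate regions and 22%, 24.2% and 23.7% of the H3R8me2a separate regions, so H3R2me2a was higher in 3 of 3 lists. H4R3me1 gave 20.6% and 22.3% against 16.3% and 17.4%. Among promoter regions alone these gaps were smaller, with H4R3me2a at 28.6%, 34.5% and 33.3% against 24.9%, 32.8% and 33.3%, and H4R3me1 at 21.9% and 23.6% against 22.7% and 23.0%, where the order turned in list 1. Symmetric H4R3me2s was in the opposite order, with 16.6%, 9.16% and 11.1% of H3R2me2a separate regions and 24.5%, 14.0% and 19.2% of H3R8me2a separate regions, higher on the latter in 3 of 3 lists, and in promoters alone likewise, with 19.95%, 11.6% and 13.9% against 29.6%, 19.1% and 19.8%. Of the shared regions, 58.5% to 85.3% held a peak in each list of the 3 H4 marks. These are shares of the same regions in different lists, and their differences were not tested.

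**Figure D3:**
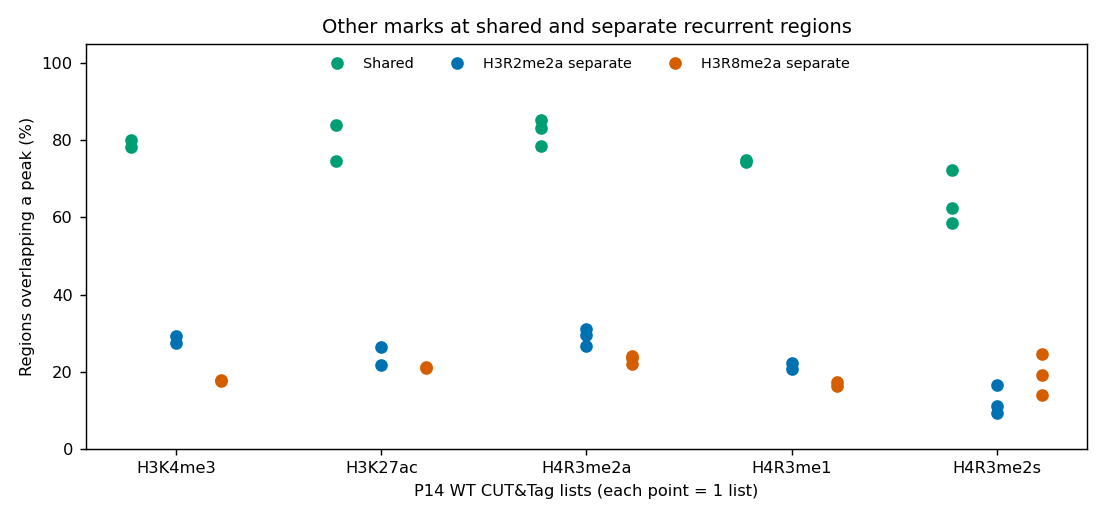
Percent of shared H3R2me2a regions, H3R2me2a separate regions and H3R8me2a separate regions that overlap a peak of each P14 WT list of 5 other marks (1 point a list). Shared regions lie between 58.5% and 85.3% and the separate classes at 31.1% or less, with H4R3me2s the mark that lay more often on H3R8me2a separate than on H3R2me2a separate regions.

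Lists from P7 gave an independent look at the separate regions. Of the 1267 H3R8me2a separate regions at P14, 24.7% and 24.1% overlapped a peak of the P7 H3R8me2a lists and 6.39% and 9.47% a peak of the P7 H3R2me2a lists, a ratio of the means of 3.07 although the P7 H3R8me2a lists were shorter. Of the 7741 H3R2me2a separate regions, 12.2% and 12.4% overlapped P7 H3R2me2a and 6.98% and 7.07% P7 H3R8me2a, a ratio of 1.75. In both classes the lists of the same mark lay above those of the other mark without overlap (exact permutation p = 0.33 each, the smallest possible). At an equal 15157 peaks in the P7 lists the H3R2me2a separate values narrowed to 10.01% and 9.13% against 6.92% and 7.07%. The shared regions showed no such preference for H3R2me2a, with 43.1% and 42.1% in P7 H3R2me2a and 45.7% and 46.1% in P7 H3R8me2a.

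Strength mattered most for H3R8me2a. In the strongest tertile of its separate regions (423 regions), 44.2% overlapped a peak in each P7 H3R8me2a list, against 7.80% and 9.46% in P7 H3R2me2a. In the weakest tertile the values were 11.1% and 11.8% against 5.69% and 8.06%. Repeats moved with this result. H3R8me2a separate regions more than 50% soft-masked (447) were found at 34.9% and 34.5% in P7 H3R8me2a, and the 820 others at 19.1% and 18.4%, still above their 6.1% and 8.78% in P7 H3R2me2a. For H3R2me2a the direction turned in repeats: its 696 separate regions more than 50% soft-masked were found at 16.1% and 15.8% in P7 H3R2me2a and at 17.4% and 16.9% in P7 H3R8me2a. Other P7 marks covered H3R8me2a separate regions less often than P7 H3R8me2a did, for example 15.6%, 14.8% and 14.9% for H4R3me2a and 12.2% and 17.4% for H4R3me2s. In promoters this turned, with P7 H3K4me3 at 45.7% and 43.8% and P7 H3K27ac at 24.4% and 27.4% against 19.3% and 19.1% for P7 H3R8me2a. P7 H3K4me3 also covered more of the H3R2me2a separate regions (23.3% and 22.1%) than P7 H3R2me2a did. For this class P7 H4R3me1 (11.6% and 10.7%) and P7 H3K27ac (10.2% and 10.7%) came close to P7 H3R2me2a (12.2% and 12.4%). P7 H4R3me2a gave 8.69%, 8.69% and 9.57%, and P7 H4R3me2s 7.48% and 9.74%. The lower P7 H3R8me2a values are those of the mark that the class was defined to lack at P14.

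**Figure D4:**
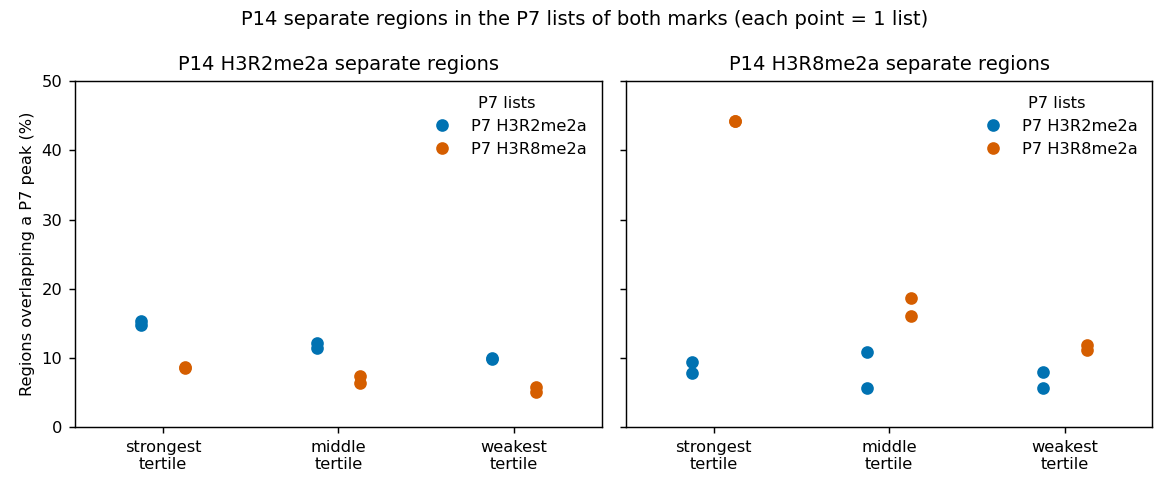
Percent of P14 separate regions that overlap a peak of each P7 list (1 point a list; 2 lists a mark), for H3R2me2a separate regions (left) and H3R8me2a separate regions (right), by tertile of peak strength. In each tertile the P7 lists of the same mark lie higher, and the gap is widest in the strongest H3R8me2a tertile, where 44.2% was found in each P7 H3R8me2a list.

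Genes were assigned by summits within 3000 bp of a start site in both replicates of a mark. Of 21938 protein-coding genes, 11244 (51.3%) carried H3R2me2a, 7230 (33.0%) carried H3R8me2a and 6424 (29.3%) carried both, so that 88.9% of the H3R8me2a genes also had H3R2me2a and 57.1% of the H3R2me2a genes had H3R8me2a. H3R2me2a alone, with no H3R8me2a summit in either list, was found at 1617 genes (7.37%), and H3R8me2a alone at 143 (0.652%). At equal list length H3R2me2a marked 39.4% of coding genes, H3R8me2a 31.7% and both 25.1%, with 911 genes (4.15%) for H3R2me2a alone and 367 (1.67%) for H3R8me2a alone. The numbers of single-mark genes thus moved when the lists were cut to their strongest peaks, down for H3R2me2a and up for H3R8me2a. Promoters with both marks were the richest in CpG: in the 300 bp around the RefSeq start site, the median was 23 CpG for genes with both marks (5069 of 6424 matched by symbol), 15 for H3R2me2a only, 14.5 for H3R8me2a only, 4 for neither and 14 over all coding genes. The GC box letters GGGCGG (either strand) occurred in 70.01% of promoters with both marks, 55.9% with H3R2me2a only, 48.3% with H3R8me2a only and 48.0% of all coding promoters.

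RNA was measured at P7 and not at P14, so the transcripts of these genes are from younger testes, of mice labelled WT in an experiment with tamoxifen, the agent that induces the knockout in its mutant arm. By the study's methods, the sorted control spermatogonia came from heterozygous mice that carry Ddx4-GFP-CreERT2 and 1 floxed Prmt1 allele. In the 3 WT bulk libraries the median TPM (the share of all transcripts, scaled for transcript length) was 26.1 to 28.6 for genes with both marks, 4.13 to 4.33 for H3R2me2a only, 10.4 to 12 for H3R8me2a only and 0.11 to 0.12 for neither. In the 2 Smart-seq2 libraries of sorted spermatogonia it was 24.2 and 22.5 with both marks, 0.19 and 0.02 with H3R2me2a only and 9.99 and 7.86 with H3R8me2a only. The share of genes at a TPM of at least 1 was 84.9% and 81.9%, 44.6% and 41.5%, and 66.4% and 62.2% in the same order. The gap between the single-mark classes was present at equal list length, with 5.19 to 5.52 against 13.9 to 14.6 TPM in the bulk libraries. All 5 libraries gave the same order, and no test over genes was made.

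The genes with both marks and the best ranks were led by places that every antibody gave. Zc3h7a, which encodes a zinc finger protein, had fold enrichments of 13.4 and 13.2 in H3R2me2a and 20.5 and 19.3 in H3R8me2a. Aida and Brox, neighbours that share 1 promoter peak, had 12.4 and 13.4 against 18.7 and 17.9. The other 5 of the 8, Gm10800, Gm21738, Gm10722, Gm11168 and Gm10715, are predicted genes with fold enrichments between 4.75 and 8.37. All 8 had promoter summits in all 31 WT lists. Among genes with H3R2me2a alone the best ranked were Rrm2, Ndufc2, Sem1 (a proteasome subunit gene, 5.57 and 4.88), Sars (seryl-tRNA synthetase, 4.08 and 4.08), Inpp5b, Acadl, Rab11fip1 and Ckm. All 8 had H3K4me3 in both P14 lists, and 7 had H3K27ac in both, Ckm in neither. Among genes with H3R8me2a alone they were Taco1 (a translational activator of mitochondrial cytochrome c oxidase, 5.65 and 6.14), C1qbp (4.62 and 5.09), 4933415F23Rik, Tbc1d17, Myd88 (an adaptor of Toll-like receptors, 3.6 and 4.04), Olfr902, Cyb5b and Rabggta. Of these 8, 7 had H3K4me3 in both P14 lists and Olfr902, an olfactory receptor gene, in neither. The Taco1 summit lay 575 bp from the start site in the window printed above, which held 2 CpG.

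The arginine methyltransferase genes carried both marks in 7 of 9 cases (77.8%), beside 29.3% of all coding genes. Prmt1, the main type I enzyme (ENSMUSG00000109324.2, chromosome 7, 44975989 to 44986568), had promoter fold enrichments of 3.13 and 3.65 in H3R2me2a and 2.99 and 3.54 in H3R8me2a. Carm1 had 3.51 and 4.10 against 5.56 and 3.47, and was a peak in all 31 WT lists. Prmt2, whose product is tied to H3R8me2a, had 4.41 and 4.02 against 2.86 and 4.38. Prmt5, the symmetric enzyme, had 2.60 and 3.24 against 3.82 and 2.5. Some of these peaks were weak within their list. By percentile of p in the list, with 0 the lowest p, Prmt5 stood at 94.9 in H3R8me2a replicate 2 and Prmt2 at 76.3 in H3R8me2a replicate 1. Prmt3, Prmt8 and Prmt9 also carried both marks, with values between 2.60 and 4.58. Prmt6, whose product makes H3R2me2a, had H3R2me2a at 3.72 and 3.90 and an H3R8me2a peak in replicate 1 only. Prmt7 had H3R2me2a at 3.86 and 3.54 and no H3R8me2a peak. With equal lists 7 of 9 carried each mark. Of 15 genes for H3K4 methylation complexes and methylarginine readers, 14 (93.3%) carried H3R2me2a and 12 (80%) H3R8me2a, beside 51.3% and 33.0% of coding genes, and at equal list length 12 each; Wdr5, the subunit that H3R2me2a is known to block, had 3.06 and 3.03 against 3.05 and 3.35.

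Of 20 spermatogonial stem cell genes, 8 (40%) carried H3R2me2a and 5 (25%) carried H3R8me2a in both replicates, beside 51.3% and 33.0% of all coding genes. With lists of equal length they were 8 (40%) and 4 (20%), beside 39.4% and 31.7%, so for H3R2me2a the gap to all coding genes was gone. Both marks lay on Id4, a transcription regulator of the stem cells (3.51 and 4.03 in H3R2me2a, 3.26 and 3.48 in H3R8me2a), on Etv5 (3.50 and 3.54, 4.91 and 5.16), on Taf4b and on Bmi1. The H3R8me2a peaks of Bmi1 were among the weaker ones of their lists, at percentiles 97.7 and 85.4 of p. Lhx1 had H3R2me2a alone (2.72 and 2.42). Gfra1, the GDNF receptor, Eomes and Foxo1 had H3R2me2a in both lists and H3R8me2a in 1, and Lin28a had H3R8me2a in both and H3R2me2a in 1. The other 11 were not recurrent for either mark: Zbtb16, Ret and Nanos2 had no summit in any of the 4 lists, while Bcl6b, Pou5f1, Nanos3, Pax7, Shisa6, Pou3f1, Sall4 and Utf1 had 1 to 2 lists with a summit. At equal list length H3R2me2a summits lay at 10 and 11 of the 20 genes by list and H3R8me2a summits at 6 and 8, beside 49.2% and 49.5% and 42.3% and 45.3% of all coding genes.

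Of 12 differentiating spermatogonia genes, H3R2me2a marked 9 (75%) and H3R8me2a 2 (16.7%), beside 51.3% and 33.0% of coding genes, and at equal list length 7 and 2. Kit, the receptor of differentiating spermatogonia, had H3R2me2a at 3.41 and 4.09 and H3R8me2a in replicate 2 only. Stra8, needed to enter meiosis (2.45 and 2.60, 3.95 and 3.29), and Sohlh2 (3.00 and 3.74, 3.52 and 3.46) carried both. Of the 7 genes with H3R2me2a in both lists and H3R8me2a in 1, 6 had the H3R8me2a summit in replicate 1, among them Dmrt1 (3.65 and 3.16 in H3R2me2a, 5.10 in H3R8me2a). By list, H3R2me2a summits lay at 9 and 12 of the 12 genes and H3R8me2a summits at 8 and 4, and with equal lists at 7 and 10 against 7 and 4, where the groups touch. Hox genes, developmental regulators that are silent in most germ cells, had H3R2me2a at 28 of 39 (71.8%) and H3R8me2a at 17 (43.6%), beside 51.3% and 33.0% of coding genes, and at equal list length at 22 (56.4%) and 17, beside 39.4% and 31.7%. By list at equal length this was 24 and 28 against 21 and 21, and at P7 it was 11 and 10 against 7 and 5. The P7 H3R2me2a lists were longer than those of H3R8me2a, and the share of all coding genes in the P7 lists is not given here. For the piRNA pathway, which silences transposons in the germ line, 12 of 17 genes (70.6%) carried H3R2me2a and 7 (41.2%) H3R8me2a, beside the same coding-gene shares, and by list at equal length 13 and 12 against 9 and 12, so the groups touch. Tdrd7 (4.17 and 5.42, 5.48 and 4.57), Tdrkh, Ddx4 and Mybl1 carried both, and Piwil1, Piwil2, Mov10l1 and Pld6 had H3R8me2a in replicate 2 only. Of the markers of somatic cells of the testis, Sertoli cell markers carried H3R2me2a and H3R8me2a at 6 (40%) and 4 (26.7%) of 15, beside 51.3% and 33.0% of coding genes, and the order turned to 3 and 4 at equal list length. Those of Leydig cells were marked at 3 and 0 of 8, peritubular myoid markers at 3 and 0 of 7 and macrophage markers at 2 and 0 of 8. With equal lists these became 1 and 0, 3 and 0, and 1 and 0, and single lists did not separate the marks, with Leydig markers at 2 and 1 in H3R2me2a against 1 and 3 in H3R8me2a and macrophage markers at 1 and 2 in each. Wt1 (4.19 and 3.44, 4.44 and 4.13), Gata4 and Inha of the Sertoli list carried both marks. A promoter peak does not tell which cells of the sample carried it, and the part of somatic cells in these lists was not tested.

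Meiotic prophase genes carried both marks at 17 of 40 promoters (42.5%), beside 29.3% of coding genes. H3R2me2a marked 24 (60%) and H3R8me2a 19 (47.5%) of the 40 in both replicates, beside 51.3% and 33.0%, and with equal lists 17 (42.5%) and 18 (45%), beside 39.4% and 31.7%. Prdm9, which sets the sites of meiotic recombination, had the highest H3R2me2a values of the list, 6.25 and 6.31, with 4.89 and 4.83 in H3R8me2a, and its window held 16 CpG. Of the synaptonemal complex genes in the list, Sycp1 (4.25 and 3.66, 4.48 and 4.12), Sycp2, Sycp3, Syce1, Syce2 and Syce3 carried both marks, and Tex12 carried H3R2me2a alone (3.45 and 2.20). The Tex12 peak in replicate 2 was among the weakest of its list, at percentile 99.7 of p. The recombination genes Spo11 and Msh4 also carried both marks, while Dmc1 and Meiob lacked H3R8me2a in 1 replicate. By list, 26 and 32 of the 40 genes had an H3R2me2a summit at P14 and 28 and 28 an H3R8me2a summit, against 10 and 7, and 6 and 5, in the shorter P7 lists. The share of all coding genes in the P7 lists is not given here, so the drop cannot be told apart from that of shorter lists. Each mark lay at 8 of 24 pachytene and spermatid genes (33.3%), below the 51.3% of coding genes for H3R2me2a and near the 33.0% for H3R8me2a, and at equal list length H3R2me2a lay at 6 and H3R8me2a at 7, with Prm1, Prm2, Tnp1, Acrv1, Pgk2 and Adam3 among those without a summit in any of the 4 lists.

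Replication-dependent histone genes stood out after the values were seen, as the list in which H3R8me2a was ahead by most genes marked in both replicates. In single lists at equal length, the zinc finger and olfactory receptor lists, given below, had larger mean leads. H3R8me2a marked 54 of 67 in both replicates and H3R2me2a 49, and at equal list length 54 (80.6%) and 34 (50.7%), against 31.7% and 39.4% of coding genes. By list at equal length, H3R8me2a had 59 and 62 of the 67 and H3R2me2a 50 and 44, and at P7 29 and 25 against 18 and 18. The P7 counts come without the share of all coding genes in the P7 lists, which is not given here. By family at equal length, H2A genes had H3R8me2a in both replicates at 16 of 18 and H3R2me2a at 9, H2B genes 14 against 8 of 18, H4 genes 10 against 5 of 13, H1 genes 5 against 4 of 6 and H3 genes 9 against 8 of 12. In the full lists 2 genes had H3R8me2a alone, and both encode the testis variants of the core histones, Hist1h2aa (TH2A) and Hist1h2ba (TH2B), at 4.28 and 3.14 from the peaks they share. Hist1h1t, the testis linker histone, had H3R8me2a at 3.10 and 4.57 and H3R2me2a in replicate 2 only, at 2.68. These genes lie in clusters, 54 of the 67 on chromosome 13, neighbours share peaks, and near-identical copies can share reads, so the 67 are not independent.

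Other lists differed between the marks in both directions, and are given beside the 51.3% (H3R2me2a) and 33.0% (H3R8me2a) of all coding genes, or the 39.4% and 31.7% at equal list length. Counts in single lists at equal length stand beside 49.2% and 49.5% (H3R2me2a) and 42.3% and 45.3% (H3R8me2a) of all coding genes. hnRNP genes carried H3R2me2a at 20 of 23 (87.0%) and H3R8me2a at 21 (91.3%), and at equal length the same numbers. SR splicing factors had 9 (69.2%) and 10 (76.9%) of 13, with Srsf9 the 1 gene with H3R8me2a alone, and at equal length 7 (53.8%) and 10. Ribosomal protein genes were marked at 51 (62.2%) and 37 (45.1%) of 82, and at equal length at 39 (47.6%) and 37. Single lists at equal length gave the other order, with 46 and 48 for H3R2me2a against 49 and 54 for H3R8me2a. Proteasome subunit genes had 30 (76.9%) and 24 (61.5%) of 39, and at equal length 28 (71.8%) and 24. NADH dehydrogenase subunit genes had 23 (63.9%) and 20 (55.6%) of 36, and at equal length 18 and 20, where the order turned. Zinc finger genes from Zfp700 to Zfp999 lay below the coding-gene shares, with 43 (31.4%) and 39 (28.5%) of 137, which turned to 34 and 36. Single lists at equal length separated the marks, with 44 and 44 for H3R2me2a against 53 and 68 for H3R8me2a. Olfactory receptor genes, best known from olfactory neurons, lay far below them, with 17 and 11 of 1092 (1.56% and 1.01%), which turned to 6 and 11, as did vomeronasal receptor genes with 2 and 3 of 326. In single lists at equal length, olfactory receptor genes had 17 and 14 for H3R2me2a against 31 and 28 for H3R8me2a.

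**Figure D5:**
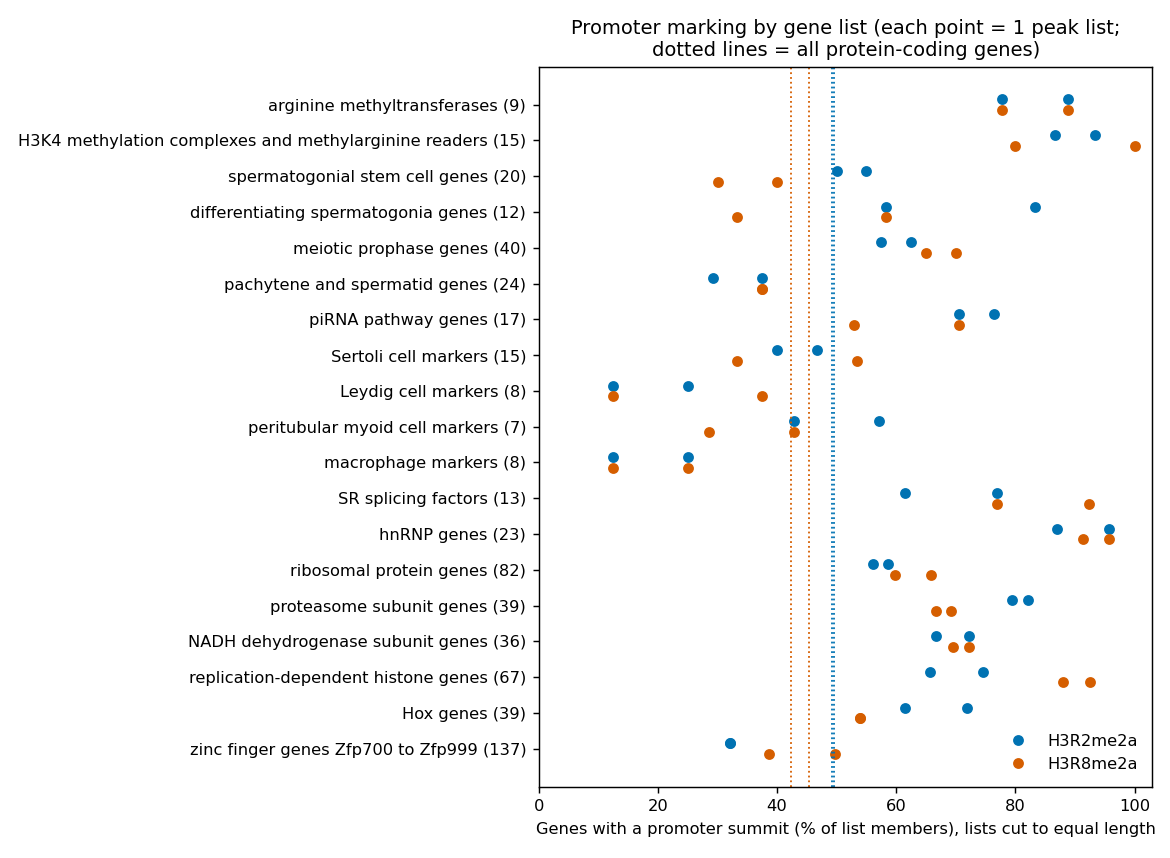
Percent of the members of each gene list (number of genes in brackets) with a promoter summit in each H3R2me2a and H3R8me2a list at equal list length (1 point a list), with dotted lines at the share of all protein-coding genes in each list. The H3R8me2a points of the replication-dependent histone genes (59 and 62 of 67) lie to the right of the H3R2me2a points (50 and 44), and the Hox, proteasome and spermatogonial stem cell lists lie the other way round.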

How the data were processed

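CUT&Tag peaks were called by the authors in each library separately, with MACS2 2.1.0 after fastp 0.23.2 on mm10 (submitters' processing notes and methods); for the aligner and the control, the sources used here give no name. Peak names carry a p threshold of 0.005 (H3K4me3: q of 0.05). The deposited lists give the fold enrichment of each summit over the library's local background and its −log10 p and −log10 q; the authors give no read totals with them, so depth is unknown and no counting interval was computed. The TPM values of the P7 RNA libraries were made by the authors with STAR and RSEM.

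Peaks on the mitochondrial genome and scaffolds were left out. Places (in the order promoter, 5' UTR, 3' UTR, exon, intron, 300 bp downstream, distal) and genes came from GENCODE vM21, with promoters reaching 3000 bp on either side of a start site. A gene was marked where both replicates had a promoter summit. Sequence, GC and soft-masking came from the RefSeq genome GRCm38.p6, and 300-bp promoters from the RefSeq table, matched by symbol for 16539 of 21938 coding genes. Lists were the replicates in exact two-sided permutation tests, which with 2 against 2 cannot go below p = 0.33. Peaks, regions and genes were not tested.

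Named were all arginine methyltransferase and spermatogonial stem cell genes, the 8 coding genes of each class with the best worst rank of p, and the 3 top regions of each class outside chromosome 18. Other genes named are examples from fixed lists, picked after their values were seen. The marks, regions and 21 gene lists were chosen with earlier results of these data known. Alternatives were a q of at most 0.01, equal list length, a 1000-bp promoter, coding transcripts, peak centres, other overlap rules, each replicate left out and a replicate block; limits on soft-masking, lists cut at P7 and list length for expression and gene lists were added after seeing the data. Lists and RNA of Prmt1-deficient mice were not used. Scripts ran in Python 3.11.15 with scipy 1.17.1, numpy 2.4.6 and pandas 2.3.3, figures were drawn in matplotlib 3.10.9, and all 16 checks of the overlap, place and test functions on simulated data recovered the known answers.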

Additional observations from a re-analysis of the deposited data

Results flagged for a closer look

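Peaks outside the chromosomes used in the comparisons were present in all 4 lists. On the mitochondrial genome and unplaced scaffolds, the H3R2me2a lists held 151 and 158 peaks (mean 154.5) and the H3R8me2a lists 194 and 222 (mean 208), although the H3R8me2a lists were shorter. Of the other lists of the same age, H3K4me3 held 104 and 101 there, H4R3me2a 144, 141 and 138, and H4R3me2s 192, 159 and 189. No control library without a specific antibody was used here, and the difference was not tested.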

How the results depend on the processing

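The exon and 3' UTR differences, the overlap difference and the preference at P7 kept their direction under each alternative run, the last except in the H3R2me2a separate regions that were mainly soft-masked, given with that result. At equal list length the promoter difference (H3R2me2a minus H3R8me2a, in percentage points) reversed from -1.10 to 5.63 and the intron difference from 0.839 to -3.04, and with a q of at most 0.01 the distal difference reversed from -0.868 to 0.331. The promoter difference at that q was -3.97, in the direction of the full lists. Leaving out each replicate gave -3.85 to 1.65 for promoters, -0.796 to 2.47 for introns and -1.95 to 0.212 for distal sequence, each range set by the H3R8me2a replicates. A q of at most 0.01 left 2351 shared and 2995 separate H3R2me2a regions, 2346 and 293 for H3R8me2a, 2738 genes with both marks and 163 with H3R8me2a alone. Equal list length left 2994 H3R2me2a separate regions, and of genes of all types 1407 with H3R2me2a alone and 667 with H3R8me2a alone, against 2758 and 344. Of the H3R8me2a separate regions, 820 were at most 50% soft-masked. With 1 replicate of a mark left out, all its remaining peaks stand as regions, so counts rise by construction: H3R2me2a shared 7557 to 10061 and separate 10429 to 36951, H3R8me2a shared 7210 to 10700 and separate 1918 to 17811, genes with H3R2me2a alone 4702 to 5544 and with H3R8me2a alone 756 to 1773.

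Shared exceeded separate regions in overlap with H3K4me3 and H3K27ac throughout. For H3R2me2a and H3K4me3 the gap of 50.9 points was 22.1 with a q of at most 0.01, 41.4 at equal length and 35.6 to 62.0 without a replicate, and for H3K27ac the 55.2 points became 37.1, 51.9 and 37.8 to 61.8. For H3R8me2a and H3K4me3 the 61.7 points became 57.7 with that q, 64.0 with 50% overlap and 46.5 to 64.2 without a replicate, and for H3K27ac 57.4 became 43.9 to 57.9 without a replicate and 56.9 to 59.9 under the other alternatives. The causes were not tested. No label says that a replicate number marks a shared animal, and same-numbered lists did not deviate together (r = -0.00110 across 26584 genes). With the replicate block the differences were unchanged by construction, at -1.10 for promoters (exact permutation p = 1), 0.826 for exons and 0.302 for 3' UTRs (exact permutation p = 0.5 each, the smallest 2 pairs allow).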

Other observations

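Some recurrent regions lay in no WT list of another mark or age. There were 857 of these among the H3R2me2a regions and 172 among the H3R8me2a regions, all separate by definition. Promoters held 26.8% and 20.9% of them, and 7.12% and 34.3% were more than 50% soft-masked. Regions with a peak in all 4 lists of these marks at P14 and in no other WT list numbered 11 among H3R2me2a regions and 15 among H3R8me2a regions.

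Genes with H3R8me2a alone were less often protein-coding (41.6%) than genes with H3R2me2a alone (58.6%) or with both marks (77.6%), and processed pseudogenes made up 14.2%, 8.96% and 2.31% of these classes. Among the letters searched in RefSeq promoters on both strands, the E-box CACGTG occurred in 16.4% of the 116 matched promoters with H3R8me2a alone, 9.2% with H3R2me2a alone, 10.3% with both and 8.13% of all coding promoters. The CRE letters TGACGTCA occurred in 5.17%, 1.64%, 3.26% and 2.43%. These shares carry no test, and a match is not a binding site. They come from the full lists only, and at equal list length the coding genes with H3R8me2a alone rose from 143 to 367.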
